A study of Mus musculus with 6 samples.

Results

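T cell receptor β chains whose complementarity-determining region 3 (CDR3) holds the residues Asp-Trp-Gly (DWG) or Gly-Leu-Gly (GLG) were followed through 6 TCR-β libraries. Members were taken as every CDR3 without a stop (*) or frame (.) mark that begins with C, ends with F or W, and has DWG or GLG starting at position 5 or later, counted from the first C. A clonotype is a combination of a TRBV gene, a TRBJ gene and a CDR3 amino acid sequence, and a clonotype is called productive where its CDR3 has no mark. There were 12593 distinct member clonotypes, with 10616 different CDR3s, among 177503 distinct clonotypes that begin with C and end with F or W, which is 7.09% of them. DWG was in 7500 members, GLG in 5105 and both in 12.

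The β chain is assembled in developing T cells by joining a variable (V), a diversity (D) and a joining (J) gene segment, with bases trimmed and added at both joints. CDR3 spans these joints and lies over the peptide when the receptor binds it. The mouse locus has 2 D segments, and each is short and rich in G, so that each reading frame gives a few residues that can be recognised in the protein. The locus lies on chromosome 6, with Trbd1 ahead of the TRBJ1 cluster and Trbd2 between the TRBJ1 and the TRBJ2 cluster. Trbd2 is therefore normally joined to a TRBJ2 gene only, whereas Trbd1 can be joined to either cluster.

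All animals were C57BL/6 mice that carried MO4 tumors, a B16F10 melanoma line engineered to express ovalbumin, from 100000 cells placed under the skin of each hindlimb on day 0. Interferon-α-producing myeloid cells made from induced pluripotent stem cells (1000000 cells) were given beside the right tumor on day 5, repeated on days 6 and 7 and again on days 12 and 13, and tumor RNA was taken on day 14. The groups were the tumor next to the injections (treated tumor), the tumor of the other hindlimb (distant tumor) and the spleen, with 2 libraries each from 2 mice and no untreated animal. The distant tumor and the spleen therefore come from injected mice too. The libraries hold TCR-β sequences alone, so the tissue labels could not be checked against marker genes. They had 42320 to 135599 productive reads. Clonotypes running from C to F or W numbered 6565 to 11195 for tumors, and spleens had 62571 and 89164.

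The sequences of both D segments show where the residues come from in the germline. They are the GENCODE M21 entries (GRCm38), on the plus strand, at chr6:41542163-41542176 for Trbd2 and chr6:41533201-41533212 for Trbd1. Capitals mark the 9 bases that encode the residues named.
Trbd2, Gly-Leu-Gly frame: gGGACTGGGGgggc
Trbd2, Asp-Trp-Gly frame: ggGACTGGGGGggc
Trbd2, Gly-Thr-Gly frame: GGGACTGGGggggc
Trbd1, Gly-Gln-Gly frame: gGGACAGGGGgc
Trbd1, Asp-Arg-Gly frame: ggGACAGGGGGc
Trbd1, Gly-Thr-Gly frame: GGGACAGGGggc
The Gly-Thr-Gly (GTG) frame is shared by both segments, so it does not tell them apart. DRG and GQG served as the matching Dβ1-type residues. The files hold no nucleotide sequence, so a motif describes the protein and does not show which D segment a given receptor used.

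The motifs went with TRBJ2 genes in every library. Of the TRBJ2 clonotypes, 8.13% held DWG or GLG in treated tumor 1, 7.02% in treated tumor 2, 8.55% in distant tumor 1, 8.79% in distant tumor 2, 11.3% in spleen 1 and 10.7% in spleen 2. Of the TRBJ1 clonotypes, the share was 0.387%, 0.693%, 0.219%, 0.332%, 0.371% and 0.461% in the same order. The highest TRBJ1 value lay far below the lowest TRBJ2 value. The means were 9.08% ± 1.61 for TRBJ2 and 0.410% ± 0.160 for TRBJ1 (SD, n = 6 libraries), a difference of 8.67 percentage points with the TRBJ2 share higher in 6 of 6 libraries (exact sign-flip permutation test, two-sided, p = 0.0312, the smallest that 6 libraries allow). The ratio of the TRBJ2 to the TRBJ1 share ran from 10.1 in treated tumor 2 to 39.0 in distant tumor 1. DWG alone (5.39% ± 1.31 against 0.219% ± 0.0351) and GLG alone (3.70% ± 0.515 against 0.191% ± 0.144) each had the same direction in all 6 libraries. Libraries from 1 mouse are not independent, and this p-value shows only that the differences of all 6 libraries share a direction.

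The Dβ1-type residues lay the other way. DRG or GQG was in 4.36% ± 0.622 of TRBJ2 and in 6.87% ± 1.13 of TRBJ1 clonotypes, a difference of -2.51 percentage points with the TRBJ1 share higher in every library (exact sign-flip permutation test, two-sided, n = 6, p = 0.0312). The TRBJ2 share was 0.510 to 0.881 times the TRBJ1 share. GQG showed this in all 6 libraries (p = 0.0312, exact), whereas DRG was lower with TRBJ2 in 5 of the 6 (-0.951 points, exact p = 0.0625). GTG, which both segments encode, was in 4.74% ± 1.22 of TRBJ2 and 3.47% ± 0.924 of TRBJ1 clonotypes (exact p = 0.0625).

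**Figure D1:**
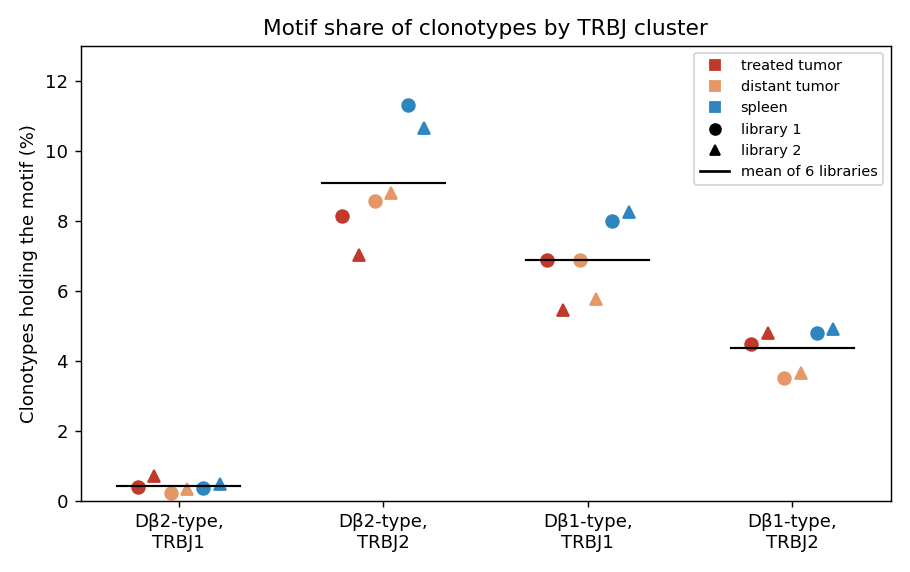
Share of TRBJ1 and TRBJ2 clonotypes (%) that hold a Dβ2-type motif (Asp-Trp-Gly or Gly-Leu-Gly) or a Dβ1-type motif (Asp-Arg-Gly or Gly-Gln-Gly), with 1 point per library and lines at the mean of 6 libraries. The Dβ2-type share is 7.02% to 11.3% with TRBJ2 and at most 0.693% with TRBJ1, whereas the Dβ1-type share is higher with TRBJ1.

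Each TRBJ1 gene was rarer among members than among other clonotypes. Of the 12 TRBJ genes tested with edgeR's quasi-likelihood test, 11 passed a Benjamini-Hochberg adjusted p of 0.05 (91.7%), with 5 higher (41.7%) and 6 lower (50%) among members. The log2 difference between members and other clonotypes was -4.52 for TRBJ1-1, -4.56 for TRBJ1-2, -5.19 for TRBJ1-4, -4.27 for TRBJ1-5 and -5.29 for TRBJ1-6. TRBJ1-3 stood closest to the others, at -2.73 (SE 0.37, adjusted p = 1.34e-09 by edgeR). TRBJ2-7, the J gene of 30.3% ± 2.37 of members and 19.4% of all clonotypes, had the largest rise, at 0.70 (SE 0.06, adjusted p = 3.56e-15 by edgeR). TRBJ2-3 (0.67), TRBJ2-5 (0.56), TRBJ2-1 (0.52) and TRBJ2-4 (0.49) rose as well. TRBJ2-2 did not pass, at 0.14 (SE 0.26, adjusted p = 0.597 by edgeR). Shares of J genes sum to a whole, so the rise of TRBJ2 genes mirrors the loss of TRBJ1 genes. With DESeq2's median-ratio scaling 7 genes passed, the 6 TRBJ1 genes and TRBJ2-7, and TRBJ2-2 turned to -0.32. In each TRBJ2 gene a mean of 7.00% to 9.76% of its clonotypes held a motif, with the lowest for TRBJ2-2 and the highest for TRBJ2-7.

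The 243 distinct members with a TRBJ1 gene were mostly seen once. Of their 249 entries over the libraries, 191 had 1 read, and 6 of the 243 were in more than 1 library. This was not particular to them. Of other TRBJ2 clonotypes, a mean of only 25.9% per library had 2 or more reads, and 94.5% were in a single library. Other TRBJ1 clonotypes were not compared in this respect. Of the 243, 213 (87.7%) ended in the usual last 4 residues of their own J gene, against 88.0% of the other TRBJ1 clonotypes, and 4 ended like a TRBJ2 gene. TRBJ1-3 supplied 102 of them, and in 69 of these 102 (67.6%) the motif was GLG followed by N. The usual end of a TRBJ1-3 CDR3 itself holds G followed by N. Single clonotypes are named here by their V gene, J gene, motif and CDR3 length. The largest TRBJ1 member paired TRBV4 with TRBJ1-2 and GLG in 14 residues, with 80 reads in treated tumor 2, 2 in spleen 2 and 0 in the other libraries. A TRBV13-3 and TRBJ1-6 member with DWG had 24 reads in distant tumor 1 and none elsewhere. A TRBV1 and TRBJ1-1 member with DWG, the leading TRBJ1 member of the spleens, had 6 reads in spleen 2 and 4 in distant tumor 2.

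Within CDR3 the motif kept a narrow place. In TRBJ2 members it began at position 5 in 17.2%, at position 6 in 56.6% and at positions 5 to 7 in 95.2% of the 12350 clonotypes. In TRBJ1 members DWG began at position 5 in 54.9% and at position 6 in 44.3%, whereas GLG had a median start of 7. A further G, as the Trbd2 frames would give, followed the motif in 37.3% of TRBJ2 members (Wilson 95% confidence interval 36.4% to 38.1%), in 32.7% for DWG and 44.1% for GLG. It followed in 11 of 243 TRBJ1 members (4.53%, 2.55% to 7.92%). Before DWG the most common residue in TRBJ2 members was R (29.0%), and before GLG it was P (27.2%). Members were longer than the other TRBJ2 CDR3s in all 6 libraries, with a mean of 14.8 to 15.0 residues against 13.8 to 13.9. Length bears on the chance of holding any 3 residues, so it is given as a description with no test. The rule's limit at position 5 leaves few sequences just outside it: in 14 to 28 clonotypes of each tumor library and in 110 and 165 of the spleens the motif began earlier.

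**Figure D2:**
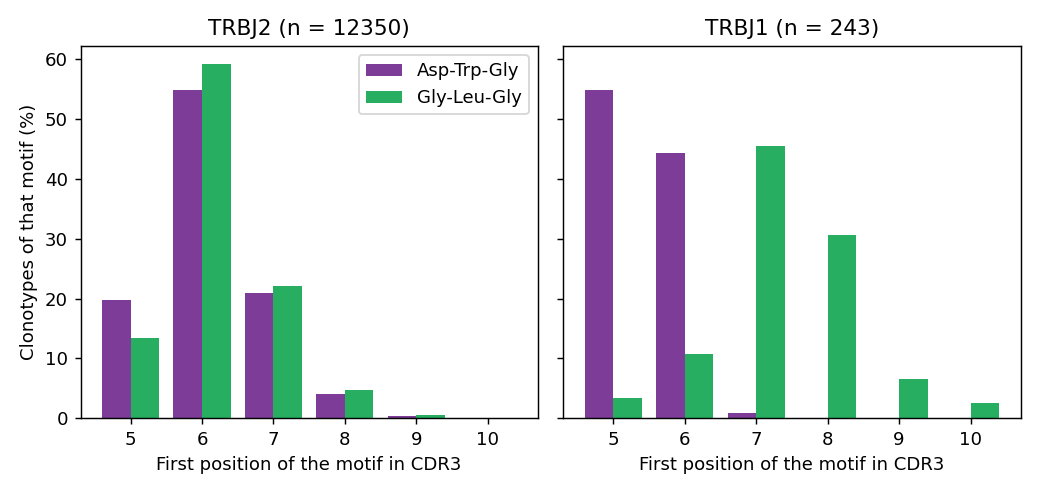
First position of the motif in CDR3 (residues, counted from the first C) for distinct TRBJ2 members (n = 12350) and TRBJ1 members (n = 243), as a percentage of the clonotypes of each motif. Starts after position 10 are few and are not drawn. In TRBJ2 members both motifs peak at position 6, and in TRBJ1 members Asp-Trp-Gly starts at 5 or 6 and Gly-Leu-Gly mostly at 7 or 8.

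TRBV29 and TRBV26 were rarer and TRBV4 was more common among TRBJ2 members than among other TRBJ2 clonotypes. Of 21 TRBV genes tested with edgeR, 3 passed an adjusted p of 0.05 (14.3%), with 1 higher (4.76%) and 2 lower (9.52%) among TRBJ2 members. TRBV29 made up 1.82% ± 0.580 of TRBJ2 members and 5.57% ± 1.92 of other TRBJ2 clonotypes (log2 difference -1.55, SE 0.28, adjusted p = 3.85e-06 by edgeR). Only 3.43% of TRBV29 TRBJ2 clonotypes held a motif on average. TRBV26 made up 1.78% ± 1.10 against 3.91% ± 0.730 (-1.13, SE 0.30, adjusted p = 0.00324 by edgeR). TRBV4 was higher, at 4.38% ± 1.64 against 2.47% ± 0.583 (0.84, SE 0.27, adjusted p = 0.0172 by edgeR), and 15.8% of its TRBJ2 clonotypes held a motif, between 4.31% and 27.1% by library. TRBV29 passed under each alternative run, whereas TRBV26 did not pass with DESeq2 (adjusted p = 0.0552), without treated tumor 2 (0.0838) or without distant tumor 1 (0.144), over a range of 0.00276 to 0.144 with 1 library left out. TRBV4 did not pass by edgeR without distant tumor 1 (adjusted p = 0.144), without spleen 1 (0.125) or without spleen 2 (0.0962).

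The most used V gene of members, TRBV5, had uneven levels. It made up 13.0% of TRBJ2 members in treated tumor 1, 37.3% in treated tumor 2, 10.5% in distant tumor 1, 13.4% in distant tumor 2, 8.79% in spleen 1 and 8.64% in spleen 2. Treated tumor 2 stood far above the rest, and both spleens were lowest. Members averaged 15.3% ± 11.0 against 9.24% ± 2.50 of other TRBJ2 clonotypes, which did not pass (log2 difference 0.55, adjusted p = 0.0548 by edgeR). In treated tumor 2, 33 of the 333 members differed by 1 residue from that library's leading member, which uses TRBV5, and without these and the leading member TRBV5 was in 28.4% of its members. TRBV12-2 was in 9.73% ± 1.96 of members and 6.58% ± 1.55 of others (0.55, adjusted p = 0.0574 by edgeR). TRBV13-2 was in 11.1% ± 3.93 and 11.5% ± 1.43, TRBV3 in 6.85% ± 1.75 and 6.00% ± 0.591, and TRBV16 in 6.65% ± 3.12 and 9.25% ± 2.56, none of which passed. TRBV12-1, TRBV12-2 and the TRBV13 genes have close relatives within their families, and their reads may be divided among relatives.

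Where the motif began differed between V genes, described here for genes chosen after their values were seen. DWG began at position 5 in 71.4% of the TRBJ2 members with TRBV20, as in the leading member of both spleens, and in 26.4% with TRBV13-3, 21.1% with TRBV13-1 and 18.7% with TRBV13-2. It did so in 0.674% with TRBV5. D at those positions without the motif also varied by V gene, and not in the same order. Among spleen TRBJ1 clonotypes without the motif, position 5 was D in 48.5% with TRBV13-2, 45.4% with TRBV13-1 and 40.1% with TRBV13-3, but in 19.2% with TRBV20 and 0.279% with TRBV5. Position 6 was D in 27.7% with TRBV5, 28.1% with TRBV2 and 27.5% with TRBV1, where DWG began at position 6 in 38.3%, 37.5% and 27.5% of TRBJ2 members. It was D in 12.9% with TRBV12-2, 7.98% with TRBV14 and 10.5% with TRBV12-1, where DWG began there in 52.4%, 47.2% and 42.2%. Whether the D of a DWG member came from the V gene or the D segment was not tested. With motifs required to begin at position 6 or later, 7 TRBV genes passed in place of 3, TRBV5 and TRBV12-2 among them (log2 difference 0.83 and 0.81, adjusted p = 0.00138 and 0.00241 by edgeR).

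**Figure D3:**
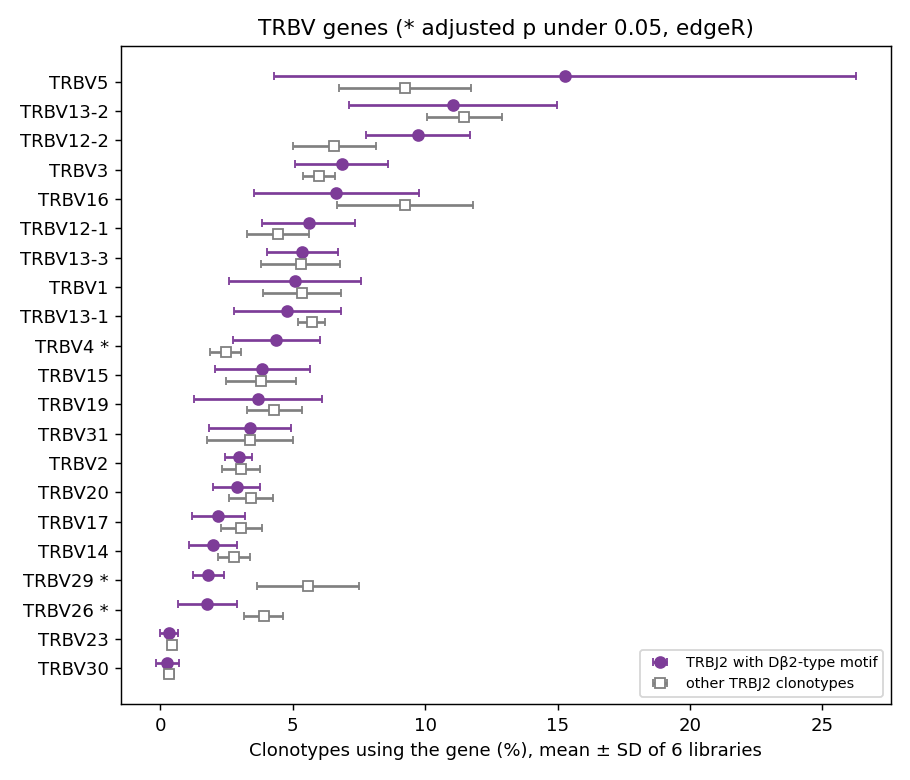
Share of clonotypes (%) that use each TRBV gene among TRBJ2 members (filled) and among other TRBJ2 clonotypes (open), as mean ± SD of 6 libraries. TRBV29 and TRBV26 lie lower and TRBV4 higher among members (asterisks mark an adjusted p under 0.05 by edgeR), and TRBV5 has the widest spread.

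Between tissues, members took a smaller share of clonotypes in tumors than in spleens when every clonotype was counted. The share was 5.63% in treated tumor 1, 5.07% in treated tumor 2, 5.48% in distant tumor 1, 6.02% in distant tumor 2, 7.83% in spleen 1 and 7.46% in spleen 2. All 4 tumors lay below both spleens. The mean was 5.55% ± 0.393 in tumors (SD, n = 4) and 7.64% ± 0.258 in spleens (n = 2), a difference of -2.09 points (exact permutation test, two-sided, p = 0.0667, the smallest that 4 against 2 allow). With TRBJ2 clonotypes alone the shares were 8.12% ± 0.787 and 11.0% ± 0.458 (exact p = 0.0667).

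This difference lay in clonotypes with 1 read. Without them the shares were 8.65% and 7.59% in the treated tumors, 8.26% and 8.35% in the distant tumors and 8.54% and 8.24% in the spleens, so that the groups overlapped and the difference was -0.175 points (exact permutation test over 4 and 2 libraries, p = 0.800). Among clonotypes with exactly 1 read, the mean was 4.63% ± 0.264 in tumors and 7.36% ± 0.269 in spleens. Those with 2 to 9 reads gave 8.06% ± 0.604 and 8.40% ± 0.238, and those with 10 or more gave 8.36% ± 0.441 and 7.31% ± 1.74. The division by read number was chosen after the data were seen. Tumor libraries also held more clonotypes that differ by 1 residue from one with at least 100 times their reads. These were 6.77% to 15.9% of productive clonotypes against 0.0661% and 0.0726% in the spleens. Only a clonotype of at least 100 reads can have such variants. The largest TRBJ2 clonotypes had 124 and 146 reads in the spleens and 1736 to 4949 in the tumors. The spleens thus offered few, so the contrast does not compare rates of variants. Folding the variants into the larger clonotype, which could hardly act in the spleens, left a difference of -1.80 points. Drawing 42320 reads from each library left it at -1.94 points. What part sequencing error or cell number has in the 1-read class was not tested.

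By reads, members held 5.93% and 6.80% of productive reads in the treated tumors, 4.08% and 5.31% in the distant tumors and 7.72% and 7.51% in the spleens. Both spleens again lay above all 4 tumors, and both treated tumors lay above both distant tumors. The mean was 6.36% ± 0.616 in treated and 4.69% ± 0.869 in distant tumors (n = 2 each), a difference of 1.67 points (exact permutation test, two-sided, p = 0.333, the smallest that 2 against 2 allow). Tumors and spleens differed by -2.09 points (exact p = 0.133). RNA was taken from whole tissue, so fewer cells of a clonotype and less receptor RNA per cell cannot be told apart. A single clonotype weighed on the treated mean. The TRBV5 and TRBJ2-3 member with GLG in 15 residues supplied 45.7% of the member reads of treated tumor 2, whose member share was 3.81% without it. With the 10 most abundant clonotypes of each library left out, the treated mean lay 0.769 points below the distant mean. The shares were then 7.05% and 4.74% in the treated tumors and 6.64% and 6.68% in the distant tumors, so that treated tumor 1 lay above both distant tumors. By clonotypes, treated and distant tumors differed by -0.401 points (exact p = 0.667).

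**Figure D4:**
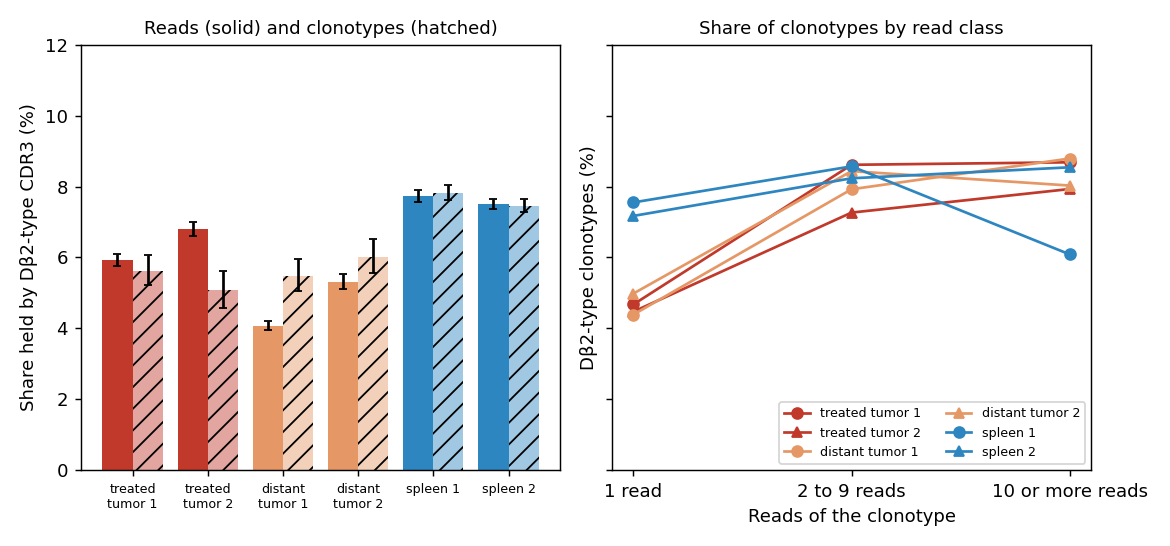
Left, share of productive reads (solid) and of clonotypes (hatched) held by Dβ2-type CDR3s in each library (%), with Wilson 95% confidence intervals that cover counting error only. Right, share of clonotypes (%) by the number of reads of the clonotype, with 1 line per library: the tumors lie between 4.39% and 4.98% at 1 read, below the spleens at 7.55% and 7.17%, and from 2 reads the libraries overlap.

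The balance of both motifs differed in treated tumor 2. DWG was in 57.9% and 45.9% of the members of the treated tumors, in 63.7% and 63.2% of those of the distant tumors and in 61.2% and 60.2% of those of the spleens. Treated tumor 2 was the one library with more GLG than DWG members (180 and 153), and GLG held 71.7% of its member reads against 28.4% to 38.0% in the others. Its leading member, which holds GLG, alone supplied 45.7% of the member reads. A further 33 of its members differed from this leader by 1 residue, so both the count and the read share lean on 1 clonotype and its near variants. Within TRBJ2, DWG was in 3.98% of clonotypes of the treated and 5.48% of the distant tumors, and GLG in 3.60% and 3.20% (exact permutation test, p = 0.333 for each).

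Tested across all 3-residue runs by reads, neither motif passed. Of 2718 runs tested with edgeR, 0 passed an adjusted p of 0.05 between treated and distant tumors (0%) and 0 between tumors and spleens. At an unadjusted p under 0.05 there were 293 and 440, and DESeq2 called 43 and 3. For treated against distant tumors the log2 difference was -0.20 for DWG (SE 0.44, adjusted p = 0.886 by edgeR) and 1.28 for GLG (SE 0.52, adjusted p = 0.460 by edgeR). The GLG value was 0.61 without treated tumor 2 and at most 1.73 with another library left out. For tumors against spleens it was -0.68 for DWG (SE 0.37, adjusted p = 0.404) and -0.29 for GLG (SE 0.44, adjusted p = 0.765), both by edgeR with scaling by productive reads. With trimmed mean (TMM) scaling these turned to 0.24 and 0.65, and the median over all runs moved from -0.81 to 0.11.

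A larger share of members than of other TRBJ2 clonotypes had more than 1 read, whereas the mean number of reads was not higher throughout. The share with 2 or more reads was 37.0% in treated tumor 1, 29.2% in treated tumor 2, 42.5% in distant tumor 1, 43.1% in distant tumor 2, 30.6% in spleen 1 and 30.3% in spleen 2. The other TRBJ2 clonotypes had 22.9%, 18.8%, 27.8%, 30.4%, 27.9% and 27.4% in the same order. The members lay higher in 6 of 6 libraries, by more than 10 points in the tumors and under 3 points in the spleens. This restates the lower member share of the 1-read class and is no separate result. What part sequencing error has in that class was not tested. The mean difference was 9.57 points (35.5% ± 6.34 against 25.9% ± 4.23, exact sign-flip permutation test, two-sided, n = 6, p = 0.0312), and with GLG alone it was 6.40 points (exact p = 0.0938). With 10 or more reads the means were 9.96% ± 8.24 and 6.28% ± 4.89, higher in 5 of 6 libraries (exact p = 0.0938). The treated tumors had a mean of 7.88 and 11.5 reads per member, the distant tumors 6.18 and 4.06, and the spleens 1.531 and 1.534. For other TRBJ2 clonotypes the means were 7.04 and 8.44, then 7.34 and 4.57, then 1.513 and 1.481. Members thus had the lower mean in both distant tumors. In treated tumor 2, 1 GLG member with 1740 reads entered the mean of 319 TRBJ2 members, and the largest other TRBJ2 clonotype had 2172 reads. The DWG members of that library, which leave the GLG member out, had a mean of 6.91 reads. TRBJ2 clonotypes with the Dβ1-type residues also exceeded the other TRBJ2 clonotypes in the share with 2 or more reads, in 6 of 6 libraries (29.7% ± 6.16, a difference of 3.81 points, exact sign-flip permutation p = 0.0312). Members lay above these in 6 of 6 libraries, by 5.76 points (exact p = 0.0312), in a comparison added after the data were seen. The sets overlap, as the other TRBJ2 clonotypes include Dβ1-type ones and 100 distinct members also hold DRG or GQG. Among the 100 most abundant clonotypes of a library, between 2 (distant tumor 2) and 9 (spleen 2) were members. Of all clonotypes of these libraries, 6.02% and 7.46% were members, so the counts lay on both sides of the members' share.

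Members were also found in another library more often, though not when 1-read clonotypes were left out. In another library were 15.9% of TRBJ2 members of treated tumor 1, 16.3% of treated tumor 2, 22.7% of distant tumor 1, 29.9% of distant tumor 2, 14.6% of spleen 1 and 11.5% of spleen 2. For other TRBJ2 clonotypes the values were 11.7%, 12.2%, 16.3%, 20.3%, 11.9% and 8.89%. Members lay higher in all 6 libraries, with means of 18.5% ± 6.68 and 13.5% ± 4.06 and a difference of 4.93 points (exact sign-flip permutation test, two-sided, n = 6, p = 0.0312). Without 1-read clonotypes the difference was 0.270 points (exact p = 0.844). With GLG alone it was 0.194 points (exact p = 1.00), and with DWG alone 8.21 points (exact p = 0.0312). Dβ1-type TRBJ2 clonotypes were found in another library at 17.1% ± 6.55, above the other TRBJ2 clonotypes in the 4 tumors and below them in both spleens (3.57 points, exact p = 0.125). Members and Dβ1-type clonotypes differed by 1.36 points, with members higher in 5 of 6 libraries and lower in treated tumor 1, at 15.9% against 19.1% (exact p = 0.219). The sets overlap here as well.

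**Figure D5:**
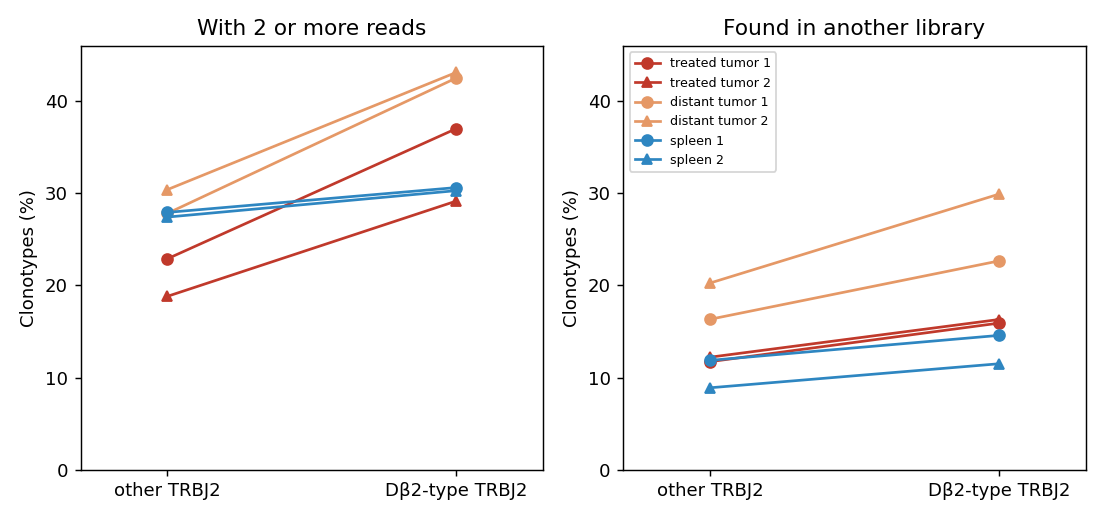
Share of clonotypes (%) with 2 or more reads (left) and found in another of the 6 libraries (right), for other TRBJ2 clonotypes and for TRBJ2 members, with 1 line per library. Every line rises, with mean differences of 9.57 and 4.93 percentage points.

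Most members belonged to 1 library. Of the 12593, which include the members with a TRBJ1 gene, 11711 (93.0%) were in a single library, as were 94.5% of other TRBJ2 clonotypes. A further 776 members were in 2, 85 in 3, 14 in 4, 6 in 5 and 1 in all 6. Treated and distant tumor shared 32 members where both carry number 1 and 18 where both carry number 2, against 5 to 13 for tumors of different numbers. This was close to the rate of other clonotypes: 5.19% of the TRBJ2 members of treated tumor 1 were in distant tumor 1, beside 4.99% of its other TRBJ2 clonotypes, and 5.64% beside 5.96% in number 2. Distant tumor 2 shared 130 members with spleen 2, which is 23.4% of its 555, and distant tumor 1 shared 85 with spleen 1, 15.7% of its 542. The spleens shared 601 with each other. Unlike between the tumors of a number, members lay above other TRBJ2 clonotypes here, with 1-read clonotypes included. Of the TRBJ2 members of distant tumor 2, 23.7% were in spleen 2, beside 14.7% of its other TRBJ2 clonotypes. For distant tumor 1 in spleen 1 the values were 15.9% beside 8.41%, and for spleen 1 in spleen 2 they were 12.4% beside 10.1%. These differences were not tested. Counts of shared members rise with the number of clonotypes in a library, and the spleens hold several times more than any tumor.

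The member in all 6 libraries paired TRBV5 with TRBJ2-7 and held DWG in 15 residues. It had 16 and 27 reads in the treated tumors, 18 and 41 in the distant tumors and 12 and 4 in the spleens. A TRBV20 and TRBJ2-7 member, with DWG in 14 residues, had 21 and 17 reads in the treated tumors, 0 and 6 in the distant tumors and 16 and 39 in the spleens, where it was the leading member of both. Of the other members in 5 libraries, the 4 with the highest summed share were a pair with TRBV5 and TRBJ2-7, a TRBV13-1 and TRBJ2-4 member, all with DWG, and a TRBV16 and TRBJ2-7 member with GLG. Of these 6 widely found members, 5 hold DWG and 5 use TRBJ2-7. None had more than 41 reads in a library, against 184 to 1740 for the first-ranked member of each tumor. In the spleens a TRBV13-2 and TRBJ2-7 member had 13 reads in each, whereas a TRBV2 and TRBJ2-4 member had 15 in spleen 1 and none elsewhere, and a TRBV5 and TRBJ2-1 member had 24 in spleen 2 and none elsewhere. All 3 hold DWG.

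The largest members of the tumors had no reads in the tumors of the other number. This holds for those named next, and the third member of distant tumor 2 is the one found in all 6 libraries. The TRBV5 and TRBJ2-3 member with GLG, of 15 residues, had 1740 reads in treated tumor 2 and 0 in distant tumor 2. The 1740 reads were 3.10% of the productive reads of treated tumor 2. With the floor of 3 reads put for distant tumor 2 the ratio of shares is 438, which is no lower bound. This member had 1 and 2 reads in the spleens and 0 in both number 1 tumors. A TRBV13-1 and TRBJ2-7 member had 112 reads in treated tumor 2 and 0 in distant tumor 2, and a TRBV15 and TRBJ2-7 member had 93 and 2. All 3 leading members of treated tumor 2 thus hold GLG. In distant tumor 2 the leader paired TRBV5 with TRBJ2-2 and held DWG in 16 residues, with 273 reads against 14 in treated tumor 2, followed by a TRBV30 and TRBJ2-7 member with DWG, with 48 reads against 29, and 16 in spleen 2.

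In number 1, a TRBV19 and TRBJ2-3 member with DWG in 15 residues had 429 reads in the treated tumor (0.516% of productive reads) and 41 in the distant tumor, a ratio of read shares of 10.3 (Fisher's exact test, two-sided, adjusted p = 5.92e-80). A TRBV5 and TRBJ2-7 member with DWG in 14 residues led distant tumor 1 with 184 reads and had 213 in treated tumor 1, which did not differ past the threshold (Fisher's exact test, adjusted p = 0.197). A TRBV5 and TRBJ2-5 member with GLG in 17 residues had 217 reads in treated tumor 1 and 0 in distant tumor 1 or any other library. With the floor of 3 reads put for distant tumor 1 the ratio of shares is 71.4, which again is no lower bound. In distant tumor 1, a TRBV12-2 and TRBJ2-1 member had 103 reads against 21 in treated tumor 1, and a TRBV13-2 and TRBJ2-5 member had 99 against 23, both with DWG.

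Nearly every tested member passed Fisher's test between the tumors of a number, as did nearly every clonotype tested, but most of these members were in 1 tumor only. Fisher's exact test on reads compares 2 libraries and not the conditions. In number 1, 104 of 200 tested members were higher in the treated tumor, beside 54.2% of all 2257 clonotypes tested, and 86 were higher in the distant tumor, beside 41.6%. In number 2, 44 of 93 tested members were higher in the treated tumor, beside 48.2% of all 1113, and 46 in the distant tumor, beside 45.7%. The members' shares lay close to those of all clonotypes. In number 1, 95 of the tested members were in the treated tumor only and 78 in the distant tumor only, and in number 2 these were 39 and 41. They entered the test through the reads of 1 tumor, and all were called, so their calls say no more than this absence. The other tested members, 27 in number 1 and 13 in number 2, were present in both tumors. Fisher's test called 17 of the 27, with 9 higher in treated tumor 1 and 8 in distant tumor 1, and 10 of the 13, with 5 higher in each tumor of number 2.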

How the data were processed

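The β chain repertoire was measured from total RNA of treated tumor, distant tumor and spleen. Per the labels' protocols, an adaptor was ligated to double-stranded cDNA, TCR-β was amplified with constant region primers and sequenced as paired 300 bp MiSeq reads, with no molecular identifiers named, so reads are not independent molecules. Per the file headers, the deposited files give a TRBV gene, a TRBJ gene, a CDR3, a read count and a percent. The authors' percent values matched the reads over productive reads to within 0.00499 points. For the aligner, germline reference and error handling, nothing is stated: not given in the sources used here. All 35 gene symbols matched GENCODE M21.

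Read shares use productive reads, and clonotype shares use clonotypes from C to F or W. Intervals (Wilson 95%) and floors (3 reads) cover counting error only. TRBV and TRBJ genes (clonotypes counted once, library as a term) and reads per 3-residue run (6 libraries as 3 groups) were tested with edgeR 4.0.16, with DESeq2 1.42.0 as an alternative. Fisher's exact test, by SciPy 1.17.1, took clonotypes whose reads in the compared libraries summed to 10 or more. Adjusted p-values are Benjamini-Hochberg over all features tested. Named clonotypes were the 3 leading members per library, up to 6 found in at least 5 libraries, 2 per pair of tumors with the highest smaller share, and the leading TRBJ1 members. Named genes were those past the threshold and the most used. The members and lists were chosen with earlier results of these data known. The titles number the libraries 1 and 2 and the series has 2 mice, which was taken as 1 mouse per number. Deviations from group means over 879 runs correlated at 0.261, 0.104 and 0.151 between libraries of the same number. Nothing further says how samples were prepared, so p-values describe these libraries and not mice in general. Those of Fisher's test cover the counting of reads in 2 libraries only, with reads taken as independent.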

Additional observations from a re-analysis of the deposited data

Results flagged for a closer look

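The motifs were also present in the sequences that the comparisons leave out, those whose CDR3 has a stop or frame mark. DWG or GLG at position 5 or later was in 5.58% of the marked clonotypes of treated tumor 1, 4.17% of treated tumor 2, 3.74% of distant tumor 1, 3.77% of distant tumor 2, 6.82% of spleen 1 and 6.08% of spleen 2. Both spleens lay above all 4 tumors, and this difference was not tested. TRBJ2 genes were used by 96.7% to 100% of the marked sequences with a motif. Of unmarked clonotypes from C to F or W, 63.1% to 69.2% used them, and their share of all marked clonotypes was not worked out. No untreated samples were available to set a level against.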

How the results depend on the processing

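Of 147 alternatives to the comparisons, 104 were unchanged, and of 264 for single genes and runs, 237 were. Unchanged means the same direction and side of the threshold, or for counts of calls an equal or similar count. Much of the first tally was fixed in advance, so it does not measure stability. The share comparisons between tissues could not pass the threshold under any setting. The sign-flip tests could not pass it with a library left out, and so counted as changed. With DWG alone the mean read share of treated tumors lay 0.423 points below that of distant tumors (a difference of -0.423). Leaving out the 10 most abundant clonotypes made this difference of means -0.769. With GLG alone the difference in clonotype share was 0.451. Sharing gave 0.270 points without 1-read clonotypes and 0.194 with GLG alone, and the share with 2 or more reads gave 6.40 with GLG alone. Leaving out 1 library gave 8.21 to 9.14 points for TRBJ2 against TRBJ1, -2.89 to -2.34 for Dβ1-type residues, 2.83 to 5.49 for sharing and 8.55 to 10.95 for 2 or more reads, each with p = 0.0625, the smallest that sign flips of 5 libraries allow (exact permutation). The TRBV calls numbered 1 to 3 with a library left out, the single call being without distant tumor 1, 7 with motifs from position 6 and 5 without 1-read clonotypes. TRBJ calls were 7 with DESeq2. Runs passing between treated and distant tumors were 43 with DESeq2 and 82 with no filter, and between tumors and spleens 3, 178, and 253 with clonotypes counted once. The DWG run for treated against distant tumors was 0.19 without treated tumor 2, over a range of -0.743 to 0.19 with a library left out. For tumors against spleens DWG was 0.24 (TMM) and 0.27 (DESeq2), and GLG 0.65 and 0.70. TRBJ2-2 was -0.32 with DESeq2 and -0.0121 without distant tumor 2, where the range with a library left out reached 0.222. TRBV13-2 was 0.0219 with TMM, 0.10 without 1-read clonotypes, and with a library left out ranged from -0.187 to 0.0897, with 0.0897 without treated tumor 1 and 0.08 without treated tumor 2. Members past Fisher's test were 297 and 169 at 5 reads and 23 and 15 at 50, where fewer clonotypes are tested. The cause of the other changes was not tested. Pairing libraries by number as a replicate block gave -2.09 points for tumors against spleens by reads (exact permutation p = 0.5, the smallest that 2 pairs allow), and as no blocked comparison had passed without it, this says nothing of stability. Drawing reads to equal depth was chosen after seeing the data. The 42320 reads of the smallest library and the 2 mice limit what can be detected.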

Other observations

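Some member CDR3s were listed with several V genes. Of the 10616 member CDR3s, 1019 (9.60%) came with more than 1 TRBV gene, against 7.80% of the other TRBJ2 CDR3s. The member CDR3s here include the few with a TRBJ1 gene. The largest number of V genes for 1 CDR3 was 12, reached by 3 CDR3s. These are descriptions with no test, and reads assigned to a related V gene were not separated from receptors of different origin.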
